A study of Mus musculus with 4 samples.

Results

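The Ms4a genes encode small tetraspan proteins of the plasma and intracellular membranes, and they are read here in Ly49H+ NK cells that did or did not carry TNFR2. The 8 members were the table entries with the symbols Ms4a1, Ms4a3, Ms4a4b, Ms4a4c, Ms4a6b, Ms4a6c, Ms4a6d and Ms4a7, out of 35798 named genes. They were taken by symbol and not by a cut on their values, but with earlier results of these data known. Another 13 symbols of the table begin with Ms4a and are given beside them.

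MS4A proteins cross the membrane several times, keep both ends inside the cell and often sit in complexes with signalling receptors. The best known is CD20, the product of Ms4a1 and the defining surface antigen of B cells, and Ms4a2 encodes the beta chain of the high-affinity IgE receptor of mast cells and basophils. Family members are spread over leukocyte types, with Ms4a4b and Ms4a6b known from T and NK cells, Ms4a4c, Ms4a6c, Ms4a6d and Ms4a7 from monocytes and macrophages, and Ms4a3 from granulocyte and monocyte precursors.

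The data were bulk RNA-seq of splenic Ly49H+ NK cells on D3.5 of infection with murine cytomegalovirus (MCMV), whose m157 protein is the ligand of the activating receptor Ly49H. WT donor cells carried the CD45.1 allele and TNFR2 KO donor cells, which lack the TNF receptor encoded by Tnfrsf1b, carried CD45.2. Both were placed together in NSG hosts, infected after transfer and separated again by flow sorting on Ly49H and the CD45 allele, to read the effect of TNFR2 within the transferred cells. Each genotype had 2 libraries (WT replicates 1 and 2, TNFR2KO replicates 1 and 2), each from the pooled spleens of 3 infected mice. By the labels, same-numbered libraries of the genotypes came from the same spleens, and the main test did not model this pairing. NSG mice have no mature T, B or NK cells of their own and keep monocytes, macrophages and granulocytes, and, being of the NOD background, they carry CD45.1 as the WT donors did. The paper states an age range for all mice of its experiments, but donor and host ages are not stated separately for these libraries. No uninfected library was analysed here. The genotype, the CD45 allele and the sort gate went with each other, so their parts cannot be told apart. Whether separate mice gave the duplicates is not stated, so p-values measure the spread between these samples, which may be technical.

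Tnfrsf1b, the targeted gene, stood at 264.7 and 268.6 CPM in the WT libraries and at 55.1 and 58.6 CPM in the TNFR2KO libraries, a log2-fold change of -2.23, where CPM is a gene's count relative to the TMM-scaled size of its library. Libraries held 32713256 to 39543650 counts, and the test covered 13822 genes. The study's thresholds, an adjusted p under 0.05 together with a log2-fold change beyond 1 in size, called 1627 of these lower and 215 higher in TNFR2 KO, and scaling on NK lineage genes instead gave 4610 lower and 27 higher, with the median of all genes moved from -0.0028 to -0.87. The 20 NK lineage genes all had an adjusted p under 0.05 toward higher levels in TNFR2 KO under TMM, with a median log2-fold change of 0.84, and 6 passed both thresholds. Their summed level was 17696 to 17772 CPM in WT and 32137 to 32495 CPM in TNFR2 KO. The NK lineage scaling makes this sum equal in all libraries. The granzyme genes Gzma and Gzmb averaged 5805 and 3876 CPM in WT and 12263 and 6540 CPM in TNFR2 KO. As the 2 most abundant genes of the list, they weigh most in that scaling.

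All 21 Ms4a genes of the table lie in a single cluster of 679 kb on chromosome 19 (RefSeq, GRCm38, the build also called mm10), from 10962289 to 11640851. The lymphocyte and monocyte members alternate there on the plus strand. Ms4a4c (11404717 to 11427246) is followed by Ms4a4b (11443558 to 11463549), Ms4a6c (11469353 to 11487182) and Ms4a6b (11518559 to 11530403), while Ms4a6d (11586606 to 11604804) and Ms4a3 (11629499 to 11640851) lie beyond them on the minus strand. Ms4a1 (11249679 to 11266149) and Ms4a7 (11321039 to 11336146) lie before them, on the minus strand.

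The promoters of Ms4a4c and Ms4a4b and of Ms4a6c and Ms4a6b are shown because the members of each pair are neighbours with near-copied upstream sequence and unlike differences between the genotypes. Each is the RefSeq window of 250 bases before a transcript start (GRCm38.p6), written 5′ to 3′, and capitals mark matches to an NF-kB core (GGGANTTTC) or an interferon-response motif (GAAANNGAA).
Ms4a4c, chr19:11407411-11407660, plus strand: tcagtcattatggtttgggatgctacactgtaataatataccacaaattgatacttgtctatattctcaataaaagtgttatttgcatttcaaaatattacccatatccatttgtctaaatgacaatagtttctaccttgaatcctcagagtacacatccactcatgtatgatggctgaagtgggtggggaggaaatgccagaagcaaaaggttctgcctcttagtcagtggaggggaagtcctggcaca
Ms4a4b, chr19:11443308-11443557, plus strand: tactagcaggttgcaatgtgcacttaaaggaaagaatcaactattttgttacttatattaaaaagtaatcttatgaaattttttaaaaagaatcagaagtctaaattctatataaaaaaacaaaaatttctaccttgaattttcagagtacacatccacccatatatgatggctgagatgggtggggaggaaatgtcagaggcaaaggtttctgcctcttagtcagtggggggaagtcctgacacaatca
Ms4a6c, chr19:11469118-11469367, plus strand: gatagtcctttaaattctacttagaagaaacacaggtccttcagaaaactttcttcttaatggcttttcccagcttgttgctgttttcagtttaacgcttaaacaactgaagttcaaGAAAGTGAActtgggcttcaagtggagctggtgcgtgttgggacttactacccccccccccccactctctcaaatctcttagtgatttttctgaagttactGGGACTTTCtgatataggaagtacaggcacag
Ms4a6b, chr19:11518309-11518558, plus strand: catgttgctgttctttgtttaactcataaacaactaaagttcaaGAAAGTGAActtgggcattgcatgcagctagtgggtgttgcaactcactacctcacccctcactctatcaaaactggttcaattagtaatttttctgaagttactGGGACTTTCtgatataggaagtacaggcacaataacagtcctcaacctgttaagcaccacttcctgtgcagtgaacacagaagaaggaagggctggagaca

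In local alignments of all 153 pairs among the 18 Ms4a genes with a promoter in the RefSeq table, Ms4a6b with Ms4a6c scored highest, with 148 of 172 aligned bases identical (86.0%), and Ms4a4b with Ms4a4c came next, with 117 of 132 (88.6%). Of the 8 members, 6 had a promoter entry, and Ms4a1 and Ms4a6d did not. Ms4a6b and Ms4a6c each held both marked motifs. The interferon-response motif began 133 bases before the start in Ms4a6c and 206 before it in Ms4a6b, and the NF-kB core began 32 and 101 bases before it. Searched on both strands, the NF-kB core was in 0.941% of 32851 RefSeq promoters of this length and the interferon-response motif in 7.13%, and in the windows shown the motifs did not overlap. Neither was found in the windows of Ms4a4b, Ms4a4c or Ms4a3, and Ms4a7 held the interferon-response motif in both of its windows. An ETS (PU.1) motif (GAGGAAG, in 10.6% of promoters), a C/EBP motif (TTGCNNAA, 9.56%) and a T-box motif (TCACACC, 3.33%) were searched as well, and among the members they matched only in Ms4a7, which held the T-box letters. A match is a description of the letters in the window and says nothing of binding in these cells.

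Of the 8 members, 7 had enough counts to be tested. Ms4a3, Ms4a4c, Ms4a6c, Ms4a6d and Ms4a7 were lower in TNFR2 KO past both thresholds, Ms4a4b and Ms4a6b did not pass both, and none was higher past both. Of all tested genes, 11.8% were lower past both thresholds and 1.56% were higher (edgeR), which is the background for the gene lists below as well. DESeq2 also called 5 lower and 0 higher. By the edgeR adjusted p alone, and by the unadjusted p, 5 members were lower and 1 higher, the adjusted count being set against 26.2% and 24.2% of all tested genes. In 6 of the 7 tested members the WT and TNFR2KO libraries did not overlap, the exception being Ms4a6b, against 74% of all tested genes, so this count does not set the members apart. The median log2-fold change of the 7 was -2.65, against -0.0028 over all tested genes. In bulk samples, fewer cells of a type and less RNA per cell cannot be told apart.

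**Figure D1:**
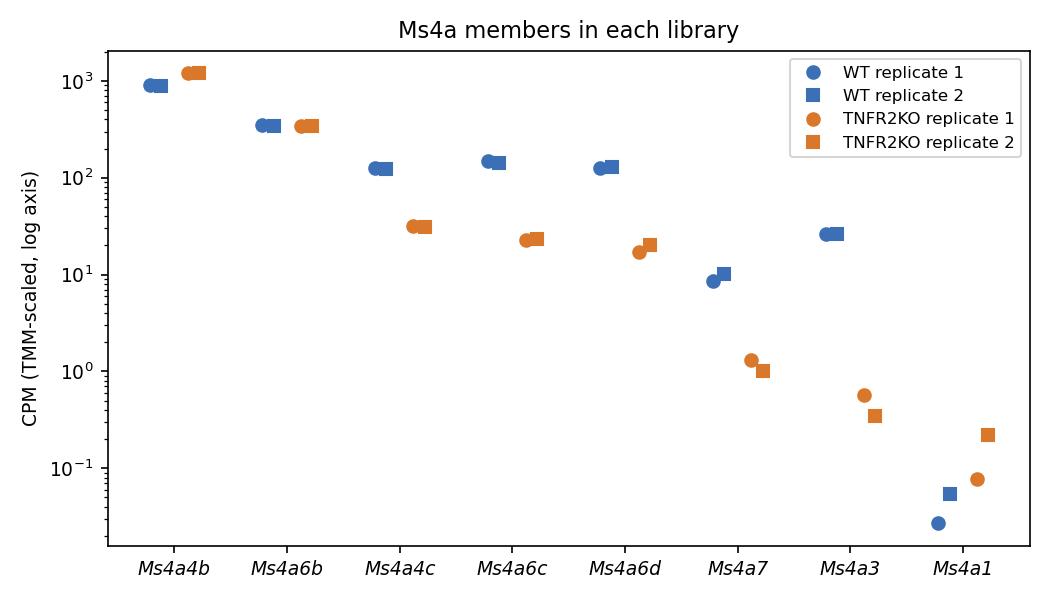
CPM of each Ms4a member in each library on a log axis, with WT libraries in blue and TNFR2KO libraries in orange, circles for replicate 1 and squares for replicate 2. The 2 genotypes lie together for Ms4a6b, TNFR2KO lies slightly above WT for Ms4a4b (1200.04 and 1193.06 against 905.7 and 891.0 CPM), and the gap is widest for Ms4a3.

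The lymphocyte members came first in level. Ms4a4b, whose protein associates with GITR and modulates T cell activation, was at 905.7 and 891.0 CPM in the WT libraries and at 1200.04 and 1193.06 CPM in the TNFR2KO libraries. Both TNFR2KO libraries were above both WT libraries, and the duplicates lay much closer together than the genotypes. The log2-fold change was 0.41 (SE 0.0217, 95% interval 0.37 to 0.46, adjusted p = 9.81e-09, edgeR quasi-likelihood test with Benjamini-Hochberg correction, as for all adjusted p-values), a 1.33-fold difference under the fold threshold, and scaling on the NK lineage list turned it to -0.45 (adjusted p = 1.64e-09), the adjusted p-values over the 12 alternatives reaching at most 5.16e-08.

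Ms4a6b, its paralogue known from T cells, was at 349.97 and 343.3 CPM in WT and at 345.4 and 338.4 CPM in TNFR2 KO. The groups overlapped, and TNFR2KO replicate 2 was the lowest. Its log2-fold change was -0.02 with a 95% interval of -0.08 to 0.04 (adjusted p = 0.564, edgeR), so a change beyond 0.1 in either direction lay outside the interval under TMM scaling. On the NK lineage scaling it was -0.89 (adjusted p = 3.02e-11), and on library size alone -0.081 (adjusted p = 0.0212). Over the 12 alternatives the adjusted p ran from 3.02e-11 to 0.994.

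Against Ncr1, which encodes the NK receptor NKp46, both lymphocyte members took a smaller place in TNFR2 KO. Ratios of counts within a library do not depend on scaling, but they do depend on the gene taken for comparison. Ncr1 had a log2-fold change of 0.99, against 0.41 for Ms4a4b, and the NK lineage list ran from 0.44 to 1.49. A list gene near 0.44 would leave the Ms4a4b ratio almost level between genotypes. There were 350.6 and 348.7 counts of Ms4a4b per 100 of Ncr1 in WT and 234.7 and 233.7 in TNFR2 KO. For Ms4a6b there were 135.5 and 134.4 per 100 of Ncr1 in WT and 67.6 and 66.3 in TNFR2 KO. Neither ratio overlapped between genotypes. Ncr1 itself was at 258.3 and 255.5 CPM in WT and at 511.3 and 510.5 CPM in TNFR2 KO.

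Ms4a4b and Ms4a6b are also T cell genes, and T cell markers were read beside them. The 12 genes of the T cell list summed to 1627 and 1613 CPM in WT and to 1492 and 1522 CPM in TNFR2 KO. None passed both thresholds with edgeR or DESeq2, 7 were lower and 2 higher at an unadjusted p under 0.05 (edgeR), and the list's median log2-fold change was -0.19. Its most abundant genes were Trbc2, a T cell receptor constant segment, at 232.3 to 234.9 CPM in WT and 223.3 to 236.6 CPM in TNFR2 KO, and Cd4, at 270.4 to 274.1 CPM in WT and 184.9 to 185.6 CPM in TNFR2 KO. Neither T cell gene was near 0. The part of T cells in the Ms4a4b and Ms4a6b levels was not tested.

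The monocyte and macrophage members were all lower in TNFR2 KO, by 4.03-fold to 8.06-fold. Ms4a4c, an interferon-inducible monocyte gene, was at 127.06 and 124.4 CPM in WT and at 31.5 and 30.9 CPM in TNFR2 KO. The genotypes were far apart and the duplicates close, and the log2-fold change was -2.01 (SE 0.0403, 95% interval -2.10 to -1.92, adjusted p = 9.70e-13, edgeR). Under the alternatives it ran from -2.87 to -1.99.

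Ms4a6c was at 147.3 and 142.9 CPM in WT and at 22.7 and 23.5 CPM in TNFR2 KO, and the groups did not overlap. It is a gene of monocytes and macrophages. Its log2-fold change was -2.65 (SE 0.0427, 95% interval -2.75 to -2.56, adjusted p = 1.53e-13, edgeR).

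Ms4a6d, expressed in macrophages, was at 126.9 and 128.2 CPM in WT and at 17.02 and 19.98 CPM in TNFR2 KO. TNFR2KO replicate 1 was the lowest of the 4 libraries. The log2-fold change was -2.79 (SE 0.0576, 95% interval -2.92 to -2.67, adjusted p = 1.19e-12, edgeR).

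Ms4a7, a gene of macrophages, had the lowest counts of the tested members in WT, 328 and 372, against 51 and 32 in TNFR2 KO. This is 8.65 and 10.1 CPM in WT and 1.33 and 0.999 CPM in TNFR2 KO, a clear separation at low depth. The log2-fold change was -2.999 (SE 0.183, 95% interval -3.40 to -2.60, adjusted p = 3.80e-08, edgeR).

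Most of the macrophage and monocyte marker list moved with these members. Of its 20 genes, 18 were lower past both thresholds and none was higher past both (edgeR and DESeq2, with 2 higher at an unadjusted p under 0.05), with a median log2-fold change of -2.87 and quartiles of -3.20 and -2.66. Its summed level was 2611 and 2577 CPM in WT and 1279 and 1260 CPM in TNFR2 KO. Ccr2 and Ly6c2, the 2 higher genes, made up most of the TNFR2 KO sum. Ccr2 was at 403.5 and 384.0 CPM in WT and at 686.6 and 669.7 CPM in TNFR2 KO. Ly6c2 was at 267.6 and 255.8 CPM in WT and at 312.4 and 314.8 CPM in TNFR2 KO. Lyz2, the lysozyme of myeloid cells, was at 771.5 and 777.7 CPM in WT and at 114.03 and 110.4 CPM in TNFR2 KO, with a log2-fold change of -2.79. The log2-fold changes of Ms4a6d and Ms4a7 lay between the list's quartiles, that of Ms4a6c lay at their upper edge, and that of Ms4a4c was smaller. Ccr2, a chemokine receptor gene, and Ly6c2 had log2-fold changes of 0.78 and 0.26 in the other direction, and none of the 20 genes was at 0. The part of other cells in the myeloid members' differences was not tested.

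**Figure D2:**
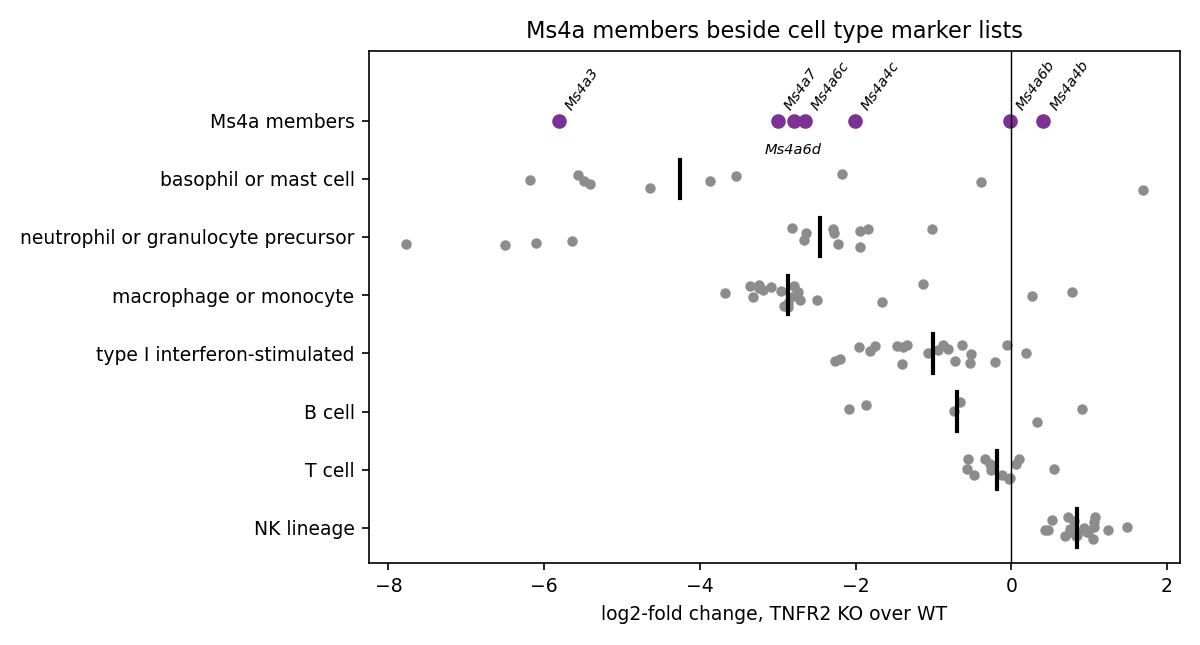
Log2-fold change, TNFR2 KO over WT, of the 7 tested Ms4a members (purple) above the genes of 7 marker lists (grey, 1 point a gene, black bar at the median). Ms4a6c, Ms4a6d and Ms4a7 sit near the macrophage or monocyte median of -2.87, Ms4a3 among the lowest basophil and granulocyte genes, and Ms4a4b and Ms4a6b below the NK lineage median of 0.84.

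Among the monocyte and macrophage members the proportion of Ms4a4c differed most clearly between genotypes. Per 100 counts of Ms4a6c there were 86.2 and 87.0 of Ms4a4c in WT and 138.9 and 131.4 in TNFR2 KO, so Ms4a4c fell less. Per 100 counts of Ms4a6d there were 116.1 and 111.4 of Ms4a6c in WT and 133.3 and 117.8 in TNFR2 KO, higher in both TNFR2KO libraries, by little in replicate 2. Ms4a7 per 100 of Ms4a6d overlapped between genotypes, at 6.81 and 7.86 in WT and 7.79 and 4.998 in TNFR2 KO. Against Csf1r, the receptor gene of the macrophage growth factor, Ms4a6c stood at 57.97 and 55.9 per 100 in WT and at 82.9 and 88.3 in TNFR2 KO, a higher proportion in both TNFR2KO libraries. This proportion depends on the gene taken for comparison. Csf1r had a log2-fold change of -3.24, below the marker list's quartiles of -3.20 and -2.66. Lyz2, at -2.79, lay closer to Ms4a6c, at -2.65.

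Ms4a4c is an interferon-inducible gene, and type I interferon-stimulated genes were read as a list. Of 20 genes, 10 were lower past both thresholds and none was higher past both (edgeR and DESeq2, with 1 higher at an unadjusted p under 0.05), and the median log2-fold change was -1.003. Irf7, which amplifies the interferon response, had a log2-fold change of -1.34, smaller in size than that of Ms4a4c, -2.01.

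Ms4a3, which encodes the cell cycle regulator HTm4 of myeloid precursors, had the largest difference of the members. It was at 26.4 CPM in both WT libraries and at 0.569 and 0.343 CPM in TNFR2 KO. The counts behind these were 1001 and 973 in WT and 22 and 11 in TNFR2 KO. The log2-fold change was -5.81 (SE 0.154, 95% interval -6.15 to -5.48, adjusted p = 1.22e-11, edgeR), a 57.9-fold difference, and it ran from -6.24 to -5.52 as single libraries were left out.

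Ms4a2, the IgE receptor beta chain and the neighbour of Ms4a3 in the cluster, was at 64.3 and 62.7 CPM in WT and at 1.14 and 1.34 CPM in TNFR2 KO. Its log2-fold change was -5.69 (adjusted p = 1.09e-13, edgeR), a 51.2-fold difference. Fcer1a, the alpha chain of the same receptor, was at 41.4 and 41.1 CPM in WT and at 1.06 and 0.749 CPM in TNFR2 KO. The gamma chain gene Fcer1g, which NK cells use for their own receptors, was at 337.6 and 334.2 CPM in WT and at 487.4 and 478.0 CPM in TNFR2 KO, with a log2-fold change of 0.52 that turned to -0.34 on the NK lineage scaling. The alpha and beta chains of the IgE receptor were thus lower in TNFR2 KO, with log2-fold changes of -5.48 and -5.69, and the shared gamma chain did not pass both thresholds.

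Granulocyte and basophil genes were lower together with Ms4a3 and Ms4a2. All 14 tested genes of the 15 on the neutrophil or granulocyte precursor list were lower past both thresholds, with a median log2-fold change of -2.46, and the list summed to 1033 and 1051 CPM in WT and to 105.1 and 100.9 CPM in TNFR2 KO. Mpo, the myeloperoxidase of primary granules, was at 355.5 and 361.3 CPM in WT and at 3.98 and 3.93 CPM in TNFR2 KO, while S100a9, a calprotectin subunit of mature neutrophils, had a log2-fold change of -2.22. Of 10 basophil or mast cell genes, 8 were lower and 1 higher past both thresholds, with a median of -4.25, and the list summed to 1221 and 1219 CPM in WT and to 102.9 and 103.3 CPM in TNFR2 KO. The basophil protease genes Prss34 and Mcpt8 had log2-fold changes of -6.18 and -5.57. A gene of either list that passed the filter on low counts only through its WT libraries could be called only lower. No gene of either list was at 0 in all libraries, and the part of these cell types in the Ms4a3 difference was not tested.

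Ms4a2 per 100 counts of Mcpt8 was 21.1 and 20.8 in WT and 19.1 and 19.5 in TNFR2 KO. The TNFR2 KO values rested on 44 and 43 counts of Ms4a2, too few to read so small a gap. Ms4a3 per 100 counts of Mpo was 7.42 and 7.30 in WT and 14.3 and 8.73 in TNFR2 KO, where it rested on 22 and 11 counts of Ms4a3. Ms4a3 per 100 of Ms4a2 was 41.0 and 42.1 in WT and 49.98 and 25.6 in TNFR2 KO, where the few Ms4a3 counts of TNFR2 KO set the spread and the genotypes overlapped.

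Ms4a1 was near 0 throughout. The estimated counts were 1 and 2 in the WT libraries and 3 and 7.1 in the TNFR2KO libraries, or 0.027 to 0.220 CPM, too few for the test, and no fold is given. Of 15 B cell genes, 10 were under 1 CPM in every library and 6 passed the filter, of which 2 were lower past both thresholds. The most abundant were Ighm, the immunoglobulin mu heavy chain, at 36.8 and 37.9 CPM in WT and 48.1 and 45.6 CPM in TNFR2 KO, and Cd22, a B cell lectin, at 12.5 and 11.6 CPM in WT and 23.1 and 22.1 CPM in TNFR2 KO.

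**Figure D3:**
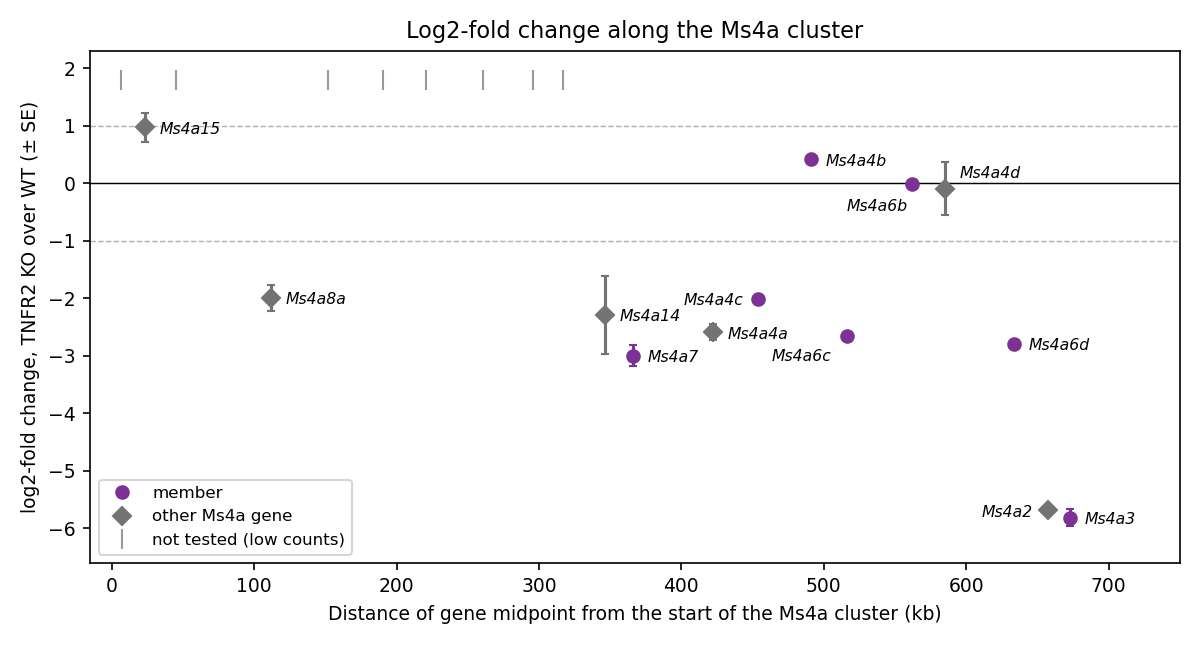
Log2-fold change (± SE) of each tested Ms4a gene against the distance of its midpoint from the start of the 679 kb cluster, with members in purple, other Ms4a genes in grey, dashed lines at an absolute log2-fold change of 1 and ticks at the top for 8 genes with too few counts. Ms4a4b (0.41) and Ms4a6b (-0.02) stand between and beside genes at -2 to -3, and Ms4a2 and Ms4a3 lie next to each other at one end near -6.

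Among the 13 other Ms4a genes, 6 were tested, 4 were lower and none was higher past both thresholds with edgeR, 1 being higher at an unadjusted p under 0.05, and DESeq2 called 3 lower and 0 higher. Of all tested genes, edgeR called 11.8% lower and 1.56% higher. Ms4a14, counted among the 4, passed the filter on low counts only through its WT libraries and could be called only lower. Ms4a4a, a gene of alternatively activated macrophages, was at 13.7 and 12.4 CPM in WT and at 2.301 and 1.998 CPM in TNFR2 KO, with a log2-fold change of -2.60 (adjusted p = 1.19e-08, edgeR). Ms4a8a was at 3.56 and 3.75 CPM in WT and at 0.801 and 1.03 CPM in TNFR2 KO, with a log2-fold change of -2.001 (adjusted p = 1.47e-05, edgeR). Ms4a14 rested on 16 counts in each WT library and on 4 and 2 in TNFR2 KO, and its adjusted p of 0.0132 rose above the threshold without WT replicate 1 (0.0902), WT replicate 2 (0.102) or TNFR2KO replicate 2 (0.0904) and with DESeq2 (0.0737), the range over 11 alternatives being 0.00068 to 0.102. Ms4a15 was at 1.03 and 1.25 CPM in WT and at 2.27 and 2.18 CPM in TNFR2 KO, with a log2-fold change of 0.97 (adjusted p = 0.00744, edgeR) that became 0.11 on the NK lineage scaling. Ms4a4d, at 0.375 to 0.554 CPM, overlapped between genotypes, with a 95% interval of -1.11 to 0.92. Ms4a5, Ms4a10, Ms4a13 and Ms4a19 were at 0 in all libraries, and Ms4a12, Ms4a18 and Ms4a20 had at most 6 counts in a library.

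Over the whole family, 13 of 21 genes were tested and 9 were lower past both thresholds with edgeR, against 11.8% of all tested genes. Ms4a14, counted among these, passed the filter on low counts only through its WT libraries, so it could be called only lower. With DESeq2 Ms4a14 was not called. Along the cluster the lower genes were not contiguous. Ms4a4b lay between Ms4a4c and Ms4a6c, which were both lower, and Ms4a6b and Ms4a4d lay between Ms4a6c and Ms4a6d.

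The neighbouring paralogues separated within each library. Per 100 counts of Ms4a4b there were 14.03 and 13.96 of Ms4a4c in WT and 2.63 and 2.59 in TNFR2 KO, a 5.36-fold lower proportion. Per 100 counts of Ms4a6b there were 42.1 and 41.6 of Ms4a6c in WT and 6.57 and 6.96 in TNFR2 KO, a 6.19-fold lower proportion, and 36.3 and 37.4 of Ms4a6d in WT against 4.93 and 5.91 in TNFR2 KO, 6.80-fold lower. Ms4a6b itself fell from 38.6 and 38.5 per 100 of Ms4a4b to 28.8 and 28.4.

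Sequence shared between the paralogues can move estimated counts between them. Of the 31-base stretches in GENCODE transcripts, 17.1% of those of Ms4a4c recur in other genes, 12.99% in Ms4a4b, and 7.90% of those of Ms4a6b, 6.19% in Ms4a6c. For Ms4a6c, 58.1% of its stretches recur in other genes, and 51.0% of its stretches recur in the overlapping antisense transcript BE692007, which has no entry in the table. The shares were 8.11% for Ms4a6d, 5.46% for Ms4a4b, 2.34% for Ms4a1, 1.42% for Ms4a7 and 1.22% for Ms4a3. Libraries were strand-specific, the strand setting of the counting was not given in the sources used here, so reads of Ms4a6c and of its antisense partner may not be separable in these counts.

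Per kb of the longest coding transcript, Ms4a4b led in both genotypes, with a level of 189.1 ± 2.19 CPM per kb in WT and 251.9 ± 1.04 in TNFR2 KO (SD, n = 2). In WT it was followed by Ms4a6b (129.3 ± 1.75 CPM per kb), Ms4a6d (89.98 ± 0.650), Ms4a6c (78.8 ± 1.70), Ms4a4c (73.0 ± 1.10), Ms4a3 (26.1 ± 0.0041), Ms4a7 (5.94 ± 0.642) and Ms4a1 (0.0132 in CPM per kb). All neighbours in this order differed by more than their spread. In TNFR2 KO the level of Ms4a6b was 127.6 ± 1.85 CPM per kb, followed by Ms4a4c (18.1 ± 0.240), Ms4a6d (13.05 ± 1.48), Ms4a6c (12.6 ± 0.326), Ms4a7 (0.738 ± 0.147), Ms4a3 (0.452 ± 0.158) and Ms4a1 (0.0484), with neither Ms4a6d and Ms4a6c nor Ms4a7 and Ms4a3 separated by more than the sum of their SDs. Ms4a4c thus stood below Ms4a6c and Ms4a6d in WT and above them in TNFR2 KO. The place of Ms4a4c depends on the transcript length taken, since the median coding transcript length puts it at 183.0 CPM per kb in WT.

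Ms4a4b and Ms4a6b together made up 49.9% and 49.8% of the family's CPM per kb in the WT libraries and 88.4% and 88.02% in the TNFR2KO libraries. The monocyte and macrophage members Ms4a4c, Ms4a6c, Ms4a6d and Ms4a7 made up 38.6% and 38.9% in WT and 10.1% and 10.6% in TNFR2 KO. Ms4a2 and Ms4a3 made up 8.24% and 8.26% in WT and 0.241% and 0.210% in TNFR2 KO. With median transcript lengths the share of Ms4a4b and Ms4a6b was 41.2% and 41.0% in WT and 82.5% and 82.1% in TNFR2 KO. With those lengths the monocyte and macrophage members made up 46.2% and 46.4% in WT, more than Ms4a4b and Ms4a6b, and 15.2% and 15.7% in TNFR2 KO, so the largest class in WT depends on the transcript length taken. Under both lengths the share of Ms4a4b and Ms4a6b was higher in TNFR2 KO and that of the monocyte and macrophage members lower.

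**Figure D4:**
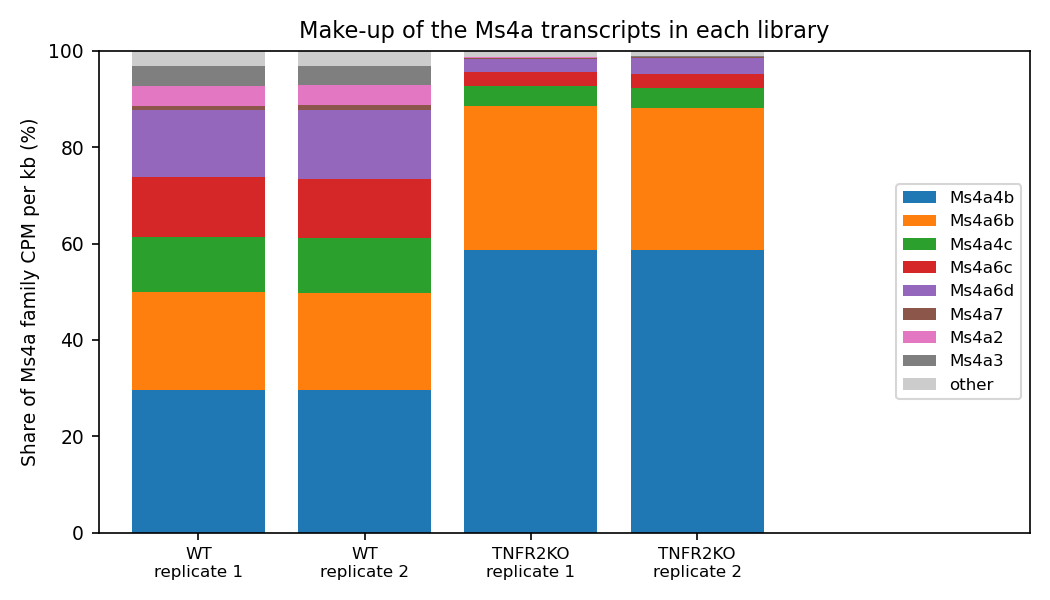
Share of the family's summed CPM per kb (longest coding transcript) taken by each Ms4a gene, with 1 bar per library summing to 100%. Ms4a4b and Ms4a6b fill 49.8% and 49.9% of the WT bars and 88.02% and 88.4% of the TNFR2KO bars.

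Of 6 genes related to the family or encoding partners of its proteins, 4 were lower past both thresholds and none was higher past both (edgeR and DESeq2, with 2 higher at an unadjusted p under 0.05). The lower genes Clec7a and Fcer1a were already counted on the macrophage or monocyte list and the basophil or mast cell list. Tmem176a and Tmem176b, related tetraspan genes of myeloid cells, went from 3.30 and 3.72 CPM in WT to 1.14 and 1.62 CPM in TNFR2 KO and from 6.04 and 5.67 to 1.47 and 1.34 CPM. Clec7a, the beta-glucan receptor Dectin-1, a partner of MS4A4A in macrophages, was at 69.6 and 67.4 CPM in WT and at 10.3 and 10.2 CPM in TNFR2 KO, with a log2-fold change of -2.74. Tnfrsf18, which encodes GITR, the partner of MS4A4B, was at 50.4 and 48.1 CPM in WT and at 59.4 and 57.7 CPM in TNFR2 KO, with a log2-fold change of 0.25 (adjusted p = 0.000638, edgeR) that turned to -0.62 on the NK lineage scaling.

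The tested genes whose pattern over the 4 libraries was most like each member's were found by the Euclidean distance between mean-centred log2(CPM + 0.5) values, among 13821 genes. For Ms4a4b these were Txnip (distance 0.0134) and Ptpn22 (0.0137), and for Ms4a6b they were Zdhhc6 (0.00429) and Uqcrc2 (0.00462). For Ms4a4c they were Gbp5 (0.0185), a guanylate-binding protein gene at 234.5 and 231.8 CPM in WT and 58.01 and 57.7 CPM in TNFR2 KO, and Retsat (0.0385). Ms4a6c was nearest to Marcks (0.0175) and Ifngr2 (0.0292), Ms4a6d to Ptgs2 (0.0428) and Gvin-ps3 (0.0532), and Ms4a7 to Arhgef10l (0.0612) and Cfp (0.0945). Ms4a3 was nearest to Fcer1a (0.081) and next to Epx (0.388), the eosinophil peroxidase, at 16.4 and 14.9 CPM in WT and listed at 0 and 0.0624 CPM in TNFR2 KO. With 4 libraries of 2 genotypes, likeness rests mostly on the difference between genotypes. The added 0.5 CPM shrinks that difference for genes near or below this level. Epx, with a log2-fold change of -8.94, still ranked next to Fcer1a for Ms4a3, at -5.81.

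The members lower in TNFR2 KO kept their direction and both thresholds under every alternative in which they were tested. Over 12 alternatives the log2-fold change ran from -6.68 to -5.52 for Ms4a3, from -3.52 to -2.61 for Ms4a6c and from -3.66 to -2.66 for Ms4a6d, and over 11 from -3.86 to -2.82 for Ms4a7, which fell under a filter of 10 CPM. The scaling on NK lineage genes gave the lowest value for each.

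**Figure D5:**
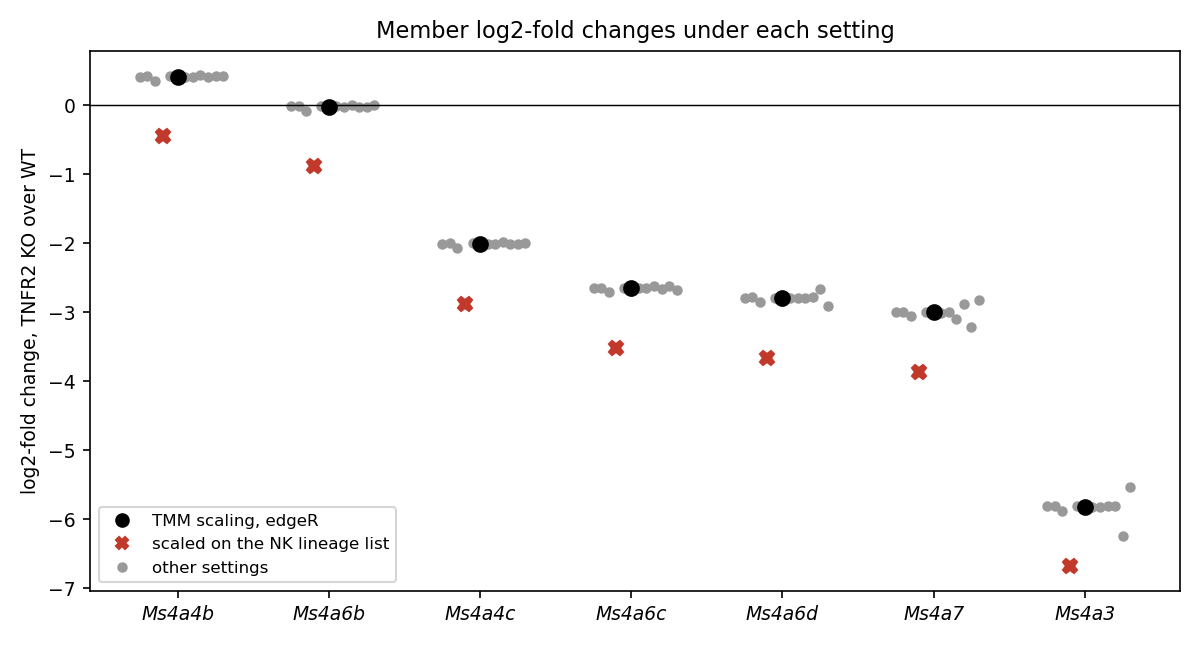
Log2-fold change of each tested member under TMM and edgeR (black), under scaling on the NK lineage list (red crosses) and under the other alternatives (grey). Ms4a3, Ms4a4c, Ms4a6c, Ms4a6d and Ms4a7 stay below -1 throughout, while Ms4a4b turns from 0.41 to -0.45 and Ms4a6b from -0.02 to -0.89 on the NK lineage scaling.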

How the data were processed

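Bulk RNA-seq was read from 2 WT and 2 TNFR2KO libraries. The authors trimmed stranded paired-end reads with Trimmomatic 1.4, assigned them to mm10 transcripts with kallisto 0.46.1 and summed them per gene with Tximport. The deposited values are estimated counts (expected counts) per gene symbol, not scaled between libraries. Their annotation was not given in the sources used here. Of the values, 22.4% to 24.4% were not whole, and counts were rounded for the tests. An entry without a gene name, 0.0559% to 0.0728% of counts, was left out.

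Counts were scaled with TMM, filtered with filterByExpr and tested with edgeR 4.0.16 in R 4.3.3 (quasi-likelihood, genotype as the only term, Benjamini-Hochberg adjustment). A call needed an adjusted p under 0.05 together with a log2-fold change beyond 1 in size. A gene that passed the filter only through a single genotype, as Ms4a14 did through WT, could be called only as higher in that genotype. Log2-fold changes are TNFR2 KO over WT. With 2 libraries against 2, an exact permutation test cannot give p under 0.333. The steps were tested on simulated data. Duplicates differed by more than sampling noise; chi-square averaged 3.29 per gene in WT and 3.53 in TNFR2 KO. At this depth genes under 10 CPM rest on the fewest counts.

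Same-numbered WT and TNFR2KO libraries came from the same spleens per the labels, so the replicate numbers pair the samples, and their deviations from the group means had a correlation of 0.0483. Alternatives were DESeq2 size factors, upper-quartile, library-size and NK-lineage scaling, no filter, a mean of at least 10 CPM, DESeq2 1.42.0, the replicate block and each library left out.

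Positions and promoters come from RefSeq on GRCm38, and transcript lengths and shared 31-base stretches from GENCODE release M21, which stands in for the authors' annotation. Promoters were aligned with Biopython 1.88. The members and gene lists were chosen with earlier results of these data known. Genes named are the 8 members, other Ms4a symbols, related and partner genes, Tnfrsf1b, the 2 most abundant genes of each list (1 of them is not reported here) and the 2 nearest patterns of each member. Ncr1, Csf1r, Ly6c2, the count ratios and the motifs were chosen after values were seen.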

Additional observations from a re-analysis of the deposited data

How the results depend on the processing

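The counts of called members were the same under all alternatives except a mean of at least 10 CPM, where 4 members were lower and Ms4a7 was not tested. The replicate block gave 5 lower members and 1616 lower genes in all, and changed no member call. Scaling on the NK lineage list moved the most, since it makes the summed counts of those genes equal in all libraries. Their median log2-fold change was then -0.02, and 4610 genes were lower and 27 higher. With this scaling 4 B cell, 6 T cell and 18 interferon-stimulated genes were lower, and 0 basophil or mast cell and 0 NK lineage genes were higher. The log2-fold changes became -0.45 for Ms4a4b, -0.89 for Ms4a6b, -0.34 for Fcer1g, -0.62 for Tnfrsf18 and 0.11 for Ms4a15. On library size alone Ms4a6b was at -0.081. With a mean of at least 10 CPM, which tests fewer genes, 420 genes were lower and 58 higher, and the lower calls were 1 other Ms4a gene, 0 B cell genes and 2 related or partner genes. Leaving out single libraries, Ms4a6b ran from -0.025 to 0.0022, above 0 without WT replicate 1, Ms4a4d ran from -0.39 to 0.14, at 0.10 without WT replicate 1 and 0.14 without TNFR2KO replicate 2, and 0 to 1 other Ms4a genes were higher, Ms4a15 without WT replicate 2 or TNFR2KO replicate 2. Ms4a14 lost its call with DESeq2 and without WT replicate 1, WT replicate 2 or TNFR2KO replicate 2. Beyond fewer tested genes and the scaling itself, the cause was not tested. Depth limits Ms4a1, Ms4a14 and the TNFR2KO values of Ms4a3 and Ms4a7 most.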
